A study of Mus musculus with 3 samples.

Results

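Peaks of open chromatin were compared between hematopoietic stem cells (HSCs) cultured with rapamycin and the same kind of cells cultured with the solvent DMSO. All mice were adult, had been given poly(I:C), and carried the genotype Mx1-Cre-/-;mTORflox/flox, so that floxed mTOR alleles were present without the Cre recombinase and mTOR was intact in every group. The sorted HSCs were kept in StemSpan SFEM medium and received DMSO, 1 µM rapamycin or 200 nM AZD2014. The sources used here state neither the number of animals pooled nor the length of drug exposure. ATAC-seq was run on 50000 cells per library, with a transposase reaction of 30 min at 37 °C, and there was 1 library per condition. No difference below can therefore be set against a spread between replicates, no p-value is given, and read depth is unknown.

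The deposited data are peak lists in which each peak has a position and the authors' own score. The DMSO list held 17189 peaks and the rapamycin list 18233. The rapamycin list was shortened to its 17189 highest-scoring peaks, which dropped 1044 peaks: the lowest score kept was 53.69 and the highest dropped was 53.68. Peaks that overlapped by at least 1 bp were joined one to one by their largest overlap, which gave 13873 pairs. The 3 lists of the series held 56743 peaks as deposited, and a pair joins 2 of them. A further 146 DMSO and 32 rapamycin peaks overlapped a peak that had a better partner. The remaining 3170 DMSO and 3284 rapamycin peaks were unpaired. Scores of different libraries share no known scale, so each peak was described by its percentile rank within its own list, where 100 is the highest score. The rank shift is the rapamycin percentile minus the DMSO percentile, in percentile points. The AZD2014 list, of 21321 peaks, was shortened in the same way and serves mainly to give its percentile beside a named peak. It shares the DMSO library as control. A peak said to be absent under AZD2014 or rapamycin is absent from the shortened list of that drug, while the DMSO list was kept whole. In what follows a pair "rose" or "fell" only if its shift was 20 points or more, and was "wider" or "narrower" only if its width differed by 1.5-fold or more.

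Rapamycin binds the immunophilin FKBP12, encoded by Fkbp1a, and the complex docks on mTOR. It blocks much of the signalling of mTOR complex 1 (mTORC1), which couples growth factors and amino acids to ribosome production, cap-dependent translation, lipid synthesis and the repression of autophagy. AZD2014 (vistusertib) instead competes with ATP at the kinase site of both mTOR complexes. In HSCs, restrained mTORC1 activity is tied to quiescence and to the maintenance of self-renewal. ATAC-seq reads out accessible DNA, which is found mainly at promoters and enhancers. A peak with a higher rank had a higher deposited score relative to the other peaks of its own list.

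The labelled cell type was checked against marker genes, by a peak within 1 kb of either end of the gene. Of 10 HSC markers, the same 4 (Kit, Mecom, Hlf and Meis1) had such a peak in the DMSO and in the rapamycin list, while the other 6, Cd34, Procr, Slamf1, Ly6a and Gata2 among them, had none in either. Of 5 megakaryocyte markers 2 had a peak in each list (Itga2b and Pf4), of 5 erythroid markers 2 (Klf1 among them), of 5 T cell markers 1 (Cd3d) and of 5 non-blood markers 1 (Col1a1). B cell markers had 1 (Ebf1) under DMSO and 2 (Cd79a and Ebf1) under rapamycin. Neutrophil and monocyte markers had 0 and 1 (Mpo), and mast cell and basophil markers 0 and 2 (Cpa3 and Gzmb), the ranks of these 3 rapamycin peaks being 22.8, 24.3 and 25.6. The part that cells of other lineages have in the differences below was not tested.

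To show the DNA behind the shifts, 6 promoter windows are printed here, each 300 bases long (250 before to 50 after the annotated start), from RefSeq on GRCm38.p6, the assembly that mm10 names. They belong to single-peak pairs with large shifts and were picked to show the kinds of motif met among them. Dtymk (chr1:93801885-93802184, minus strand) and Kbtbd4 (chr2:90904490-90904789, plus strand) rose. Fkbp1a (chr2:151542233-151542532, plus strand), Cops9 (chr1:92641899-92642198, minus strand), Ndufaf4 (chr4:24897833-24898132, plus strand) and S100a6 (chr3:90612644-90612943, plus strand) fell. Each is written 5′ to 3′ on the strand of its gene. Capitals mark matches, on either strand, to the 10 searched motifs described further on.
Dtymk: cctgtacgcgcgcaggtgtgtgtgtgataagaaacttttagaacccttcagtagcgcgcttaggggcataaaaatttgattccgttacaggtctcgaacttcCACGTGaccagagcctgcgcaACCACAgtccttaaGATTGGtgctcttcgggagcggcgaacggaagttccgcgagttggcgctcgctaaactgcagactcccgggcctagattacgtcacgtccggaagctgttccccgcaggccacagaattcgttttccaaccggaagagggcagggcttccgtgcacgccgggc
Kbtbd4: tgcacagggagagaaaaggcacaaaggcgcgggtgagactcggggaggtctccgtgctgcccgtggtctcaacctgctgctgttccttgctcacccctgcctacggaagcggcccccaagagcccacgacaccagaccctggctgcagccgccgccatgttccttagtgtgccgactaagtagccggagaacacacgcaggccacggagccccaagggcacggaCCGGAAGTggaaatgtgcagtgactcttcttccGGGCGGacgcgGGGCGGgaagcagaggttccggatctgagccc
Fkbp1a: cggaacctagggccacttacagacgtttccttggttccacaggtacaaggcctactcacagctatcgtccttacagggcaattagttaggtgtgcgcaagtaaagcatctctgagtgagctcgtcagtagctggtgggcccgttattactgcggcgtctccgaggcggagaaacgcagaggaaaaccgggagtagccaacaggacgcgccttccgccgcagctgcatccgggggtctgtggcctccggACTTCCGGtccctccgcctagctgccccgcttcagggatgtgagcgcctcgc
Cops9: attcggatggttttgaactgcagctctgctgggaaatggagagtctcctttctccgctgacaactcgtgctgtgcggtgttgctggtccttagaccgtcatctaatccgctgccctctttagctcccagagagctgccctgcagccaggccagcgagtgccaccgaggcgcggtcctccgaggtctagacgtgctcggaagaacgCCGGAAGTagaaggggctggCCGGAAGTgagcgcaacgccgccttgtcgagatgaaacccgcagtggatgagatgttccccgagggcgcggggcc
Ndufaf4: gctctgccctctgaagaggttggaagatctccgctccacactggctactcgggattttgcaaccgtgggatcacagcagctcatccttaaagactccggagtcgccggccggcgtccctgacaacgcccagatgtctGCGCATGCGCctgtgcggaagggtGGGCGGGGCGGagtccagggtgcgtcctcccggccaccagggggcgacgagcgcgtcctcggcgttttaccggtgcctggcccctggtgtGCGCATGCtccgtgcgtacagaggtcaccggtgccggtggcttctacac
S100a6: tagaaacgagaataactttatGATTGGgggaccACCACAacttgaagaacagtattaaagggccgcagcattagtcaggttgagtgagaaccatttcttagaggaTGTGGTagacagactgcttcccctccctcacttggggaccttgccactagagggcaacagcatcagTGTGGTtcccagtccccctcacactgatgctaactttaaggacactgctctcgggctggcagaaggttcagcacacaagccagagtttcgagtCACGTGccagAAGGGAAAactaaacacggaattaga
The capitals in Dtymk are an E-box, a RUNX match and an NF-Y match, and those in Kbtbd4 an ETS and 2 SP/KLF matches. Fkbp1a has 1 ETS match, Cops9 has 2, and Ndufaf4 has 3 NRF1 matches, of which an adjoining pair overlap, beside 2 SP/KLF matches that overlap as well. S100a6 has 3 RUNX matches, an E-box, an IRF match and an NF-Y match. All 300 bases lay inside both peaks at Dtymk, Fkbp1a, Cops9 and Ndufaf4. At Kbtbd4 42 bases lay in the DMSO peak and 300 in the rapamycin peak, and at S100a6 300 and 275.

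Ranks were largely kept between the libraries. Over the 13873 pairs the median shift was -0.0116 points, the quartiles were -7.11 and 7.20, the SD was 13.7, and the extremes were -86.9 and 80.6. The ranks had a Pearson correlation of 0.864 and a Spearman correlation of 0.890 across pairs, which share library, depth and base composition within a list and are no replicates. In all, 994 pairs rose (7.16% of pairs) and 906 fell (6.53%). Close to the threshold, 116 pairs had shifts of 19 to 20 points and 104 had shifts of 20 to 21. Without shortening the rapamycin list, 1317 pairs rose and 710 fell, because a longer list raises the percentile of every shared peak. The split between rises and falls thus depends on the list lengths and carries no direction of its own. It also depends on the pairing rule: with a reciprocal overlap of 50%, 778 pairs rose and 869 fell.

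For scale, the typical distance was also taken between the other lists at the same length, although the comparisons share libraries. The median absolute shift was 7.15 points for rapamycin against DMSO, 6.96 points for AZD2014 against DMSO and 6.46 points for rapamycin against AZD2014. How far 2 DMSO libraries would stand apart is unknown.

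**Figure D1:**
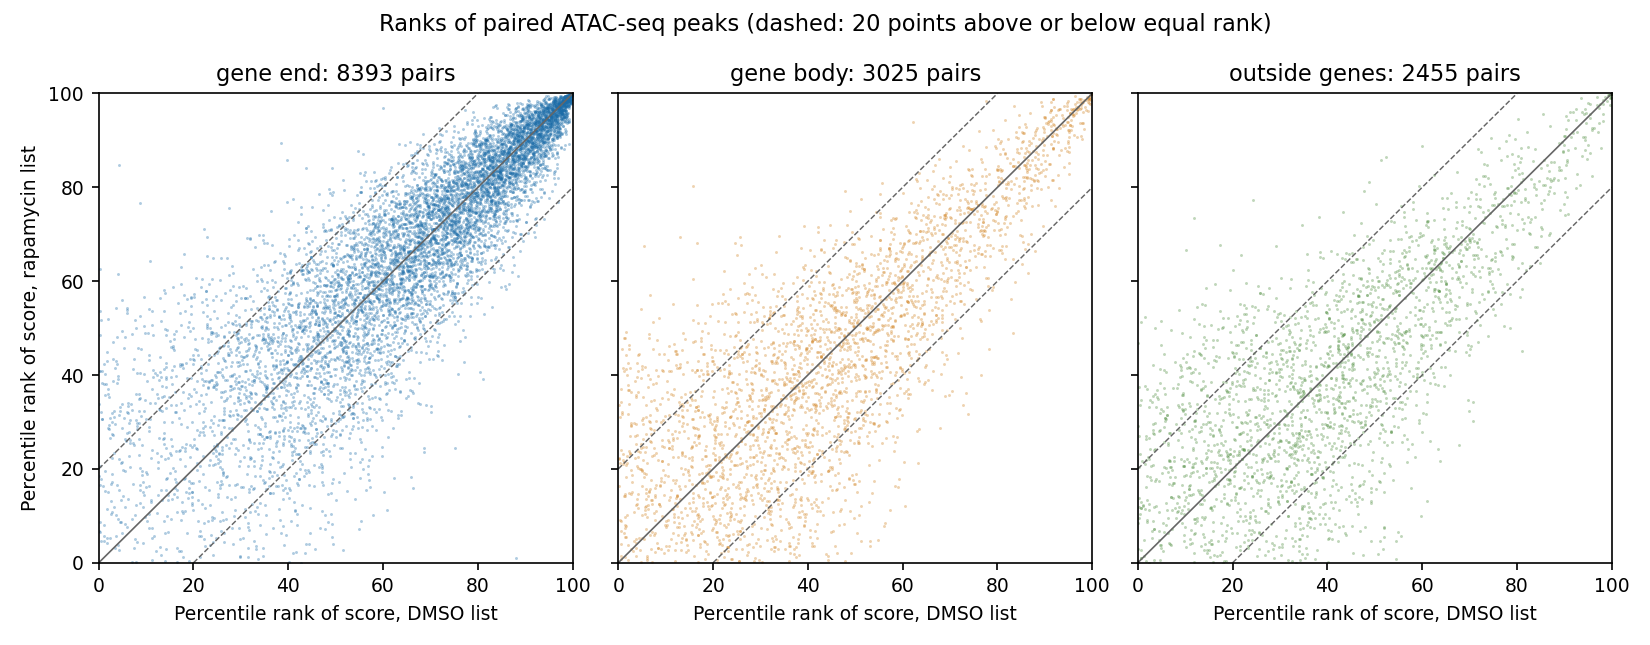
Percentile rank of the score in the DMSO list (x axis) and in the rapamycin list (y axis) for every pair, in 3 panels by place; each point is 1 pair, the solid line marks equal rank and the dashed lines 20 points above and below it. The cloud is tight at the upper right and widens down to a mean rank of 20 to 40 in all 3 panels.

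Place in the genome went with the size of the shifts, while the medians stayed close to 0 everywhere. At gene ends (within 1 kb of either end of a protein-coding gene) lay 8393 pairs, with a median shift of 0.154 points and a median absolute shift of 5.88. Of these, 5.42% rose and 4.07% fell. Gene bodies held 3025 pairs with a median of -0.640, and 9.52% rose and 10.2% fell. Outside genes there were 2455 pairs with a median of -0.177, and 10.2% rose and 10.4% fell. The Spearman correlation of ranks was 0.903 at gene ends, 0.768 in gene bodies and 0.701 outside genes. Gene ends held the higher-ranked peaks, with a median DMSO percentile of 70.8 against 43.3 in gene bodies and 40.04 outside genes. Over all ranks the median absolute shift was 9.39 in gene bodies and 10.2 outside genes. At like rank the places differed less. At a mean percentile of 20 to 40 the median absolute shift was 14.8 at gene ends, 13.9 in gene bodies and 13.7 outside genes. At 60 to 80 it was 6.76, 7.07 and 6.62.

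Large shifts were concentrated at modest ranks. Among pairs with a mean percentile of 80 to 100, 0.0595% rose and 0.179% fell, while at 20 to 40 the shares were 17.1% and 16.1%. The percentile scale ends at 0 and at 100, so pairs near either end have little room to shift. The low shares at 80 to 100 are therefore partly fixed in advance. So are those at 0 to 20, where 13.1% rose and 9.34% fell. Within that band of 20 to 40, 19.98% of gene-end pairs rose and 14.7% fell, 15.6% and 17.8% of gene-body pairs did, and 15.8% and 15.9% of pairs outside genes. At gene ends rises outnumbered falls in each band below 80, with 46 and 22 at 0 to 20, 184 and 135 at 20 to 40, 139 and 131 at 40 to 60 and 85 and 48 at 60 to 80. Gene bodies had no one direction: rises and falls were 52 and 49, 151 and 172, 76 and 74, and 8 and 14 in the same bands. No replicate shows whether any of these differences exceeds library noise. Over all places, the excess of rises turned to an excess of falls with a reciprocal overlap of 50%, as given above.

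**Figure D2:**
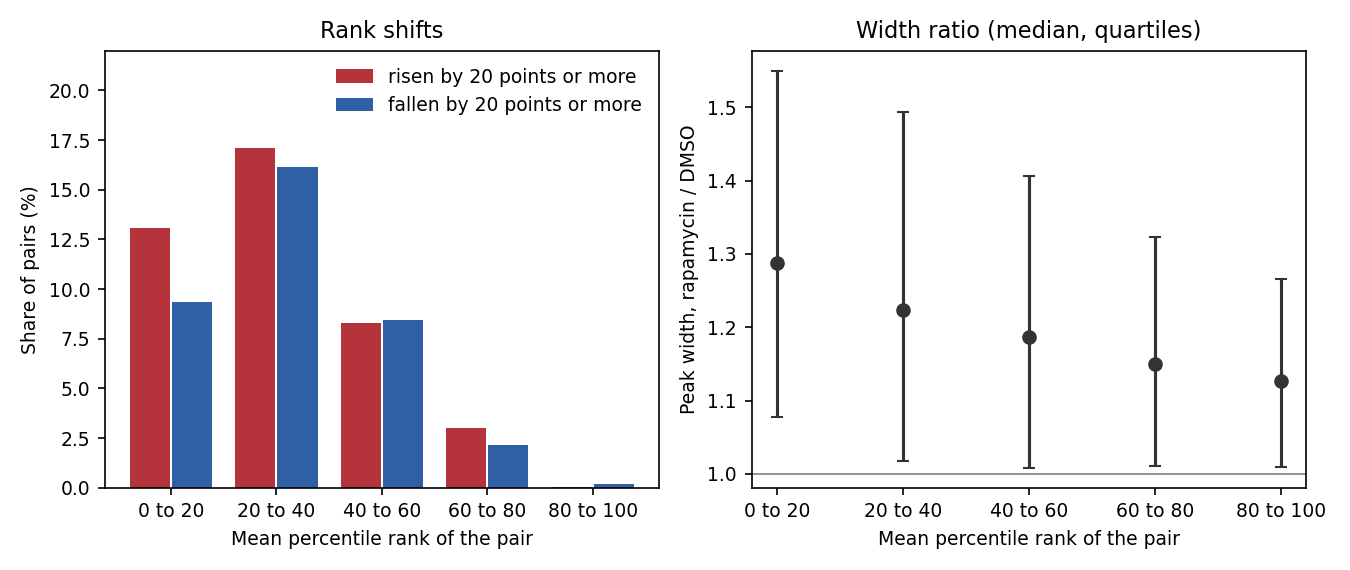
Left, share of pairs (y axis, percent) that rose (red) or fell (blue) by 20 points or more, by band of mean percentile rank (x axis); right, ratio of peak width, rapamycin over DMSO, by the same bands, with points at the median and bars from the lower to the upper quartile. Both shares peak at 20 to 40 and nearly vanish at 80 to 100. The ends of the scale limit the shift at 0 to 20 and at 80 to 100. The median ratio falls from 1.29 to 1.13.

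Adjacent pairs along the chromosomes did not share large shifts more often than others. Only the next pair on either side was looked at. Of the pairs next to a risen pair and within 50 kb of it, 6.73% had also risen, against 6.67% of the pairs next to all others. For falls the shares were 5.78% and 6.77%. Chromosome medians ran from -1.04 points on chromosome 1 to 1.13 on chromosome 13, leaving aside chromosome Y with 9 pairs.

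The largest shifts of all came where one list had a single peak and the other had 2 peaks over the same span. At Tiparp, which encodes an ADP-ribosyltransferase induced by the aryl hydrocarbon receptor, the percentile was 4.23 under DMSO and 84.9 under rapamycin. The DMSO list held 2 peaks there, and with overlapping peaks merged into one region per list the shift was -1.17. At Gtpbp2, a GTP-binding protein gene linked to ribosome rescue, the percentile was 88.1 and then 1.12, but the shift was -11.99 points once merged. In the same way the shift went from 68.0 to 27.9 at Cast, from 50.9 to 10.9 at Mthfd1l, from 36.8 to 7.54 at Slc25a25, from 46.2 to 18.1 at Oat, from 49.0 to 28.0 at Smarcb1 and from 64.5 to -2.30 in the body of Fbxl17. Among falls it went from -50.4 to -13.9 at Ybx3, from -49.5 to -30.3 at Ranbp17 and from -46.8 to -2.07 at Akirin2. Such spans made up 190 of all pairs, 66 of the 994 rises and 16 of the 906 falls. Of the 53 largest shifts named by rule, 13 were of this kind, and the pairs described next had 1 peak of each list unless stated.

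Among gene ends the leading single-peak rise was at Dtymk (chr1:93801544-93802347), which encodes thymidylate kinase of the dTTP pathway. Its percentile was 0.285 under DMSO and 62.7 under rapamycin, with scores of 50.21 and 195.7, and it stood at 41.4 in the AZD2014 list. The peak was 804 bp wide under DMSO and 653 bp under rapamycin, so this rise came with no gain in width. Kbtbd4 (chr2:90904426-90905151), a substrate adaptor of a cullin ubiquitin ligase, shares its peak with Ndufs3, a subunit of respiratory complex I. That peak went from 4.06 to 61.5, with 45.8 under AZD2014, and from 377 to 726 bp. Tsfm (chr10:127030487-127031129), a mitochondrial translation elongation factor gene, went from 0.207 to 53.7, with 30.7 under AZD2014.

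Other gene-end rises were of like size. Lor, which encodes the cornified envelope protein loricrin, went from 10.9 to 64.4, and Eftud2, a spliceosomal GTPase gene, from 0.558 to 51.8. Plcl2, a phospholipase C-like gene, went from 4.96 to 55.9, and Nbea, an anchor for protein kinase A, from 1.92 to 51.9. All of these began within the lowest ranks of the DMSO list, with DMSO scores between 50.16 at Tsfm and 58.54 at Lor, near its minimum of 50.01. Nbea had no AZD2014 peak, and the AZD2014 percentile of Plcl2 was 51.4 and that of Lor 56.8.

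Gene-end falls started in the middle of the DMSO list. At S100a6 (chr3:90612067-90613479), which encodes the calcium-binding protein calcyclin, the percentile was 54.8 under DMSO and 7.13 under rapamycin, and the AZD2014 list had no peak there. Its width was 1413 bp under DMSO and 405 bp under rapamycin, the smallest width ratio (0.287) among gene-end pairs. Ap3s2 (chr7:79920304-79920996), a subunit of the AP-3 vesicle coat, went from 51.5 to 2.83, with 21.4 under AZD2014. Cops9 (chr1:92641545-92642254), a small subunit of the COP9 signalosome, went from 55.4 to 8.97, with 41.2 under AZD2014. Cybc1, which encodes a chaperone of the phagocyte NADPH oxidase, went from 49.5 to 3.99 but stood at 55.1 under AZD2014.

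Other gene-end falls were as follows. Prdm1 encodes the repressor BLIMP1, and its percentile was 68.7 under DMSO, 23.6 under rapamycin and 33.8 under AZD2014. Ppargc1b, a coactivator of mitochondrial genes on chromosome 18, went from 60.1 to 15.2, with 10.04 under AZD2014. Tbx3, a T-box factor gene, went from 57.9 to 10.2 with no AZD2014 peak, and Dusp18, a dual-specificity phosphatase gene, from 65.8 to 18.2 with 44.8 under AZD2014. Prdm2, a histone methyltransferase gene that also narrowed from 826 to 404 bp, went from 62.3 to 18.1, with 55.7 under AZD2014.

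Because high ranks hardly move, in part for lack of room on the scale, shifts were also divided by the spread of the 500 pairs nearest in rank. By that measure the single-peak falls that stood out were Uckl1, a uridine kinase-like gene (chr2:181580897-181582136), and Ndufaf4, an assembly factor of respiratory complex I (chr4:24897737-24898559). Uckl1 went from 81.1 to 39.1 and from 1240 to 636 bp, with 63.7 under AZD2014, at -3.58 local spreads. Its promoter window had 213 bases in the DMSO peak and 0 in the rapamycin peak. Ndufaf4 went from 88.4 to 61.1 with a width of 692 and 767 bp, at -3.12 local spreads, and stood at 72.4 under AZD2014. The histone genes H2ac18 and H3c14 share a peak that went from 96.9 to 76.9, at -3.33 local spreads, where the rapamycin list had 2 peaks and the merged shift was -20.1.

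**Figure D3:**
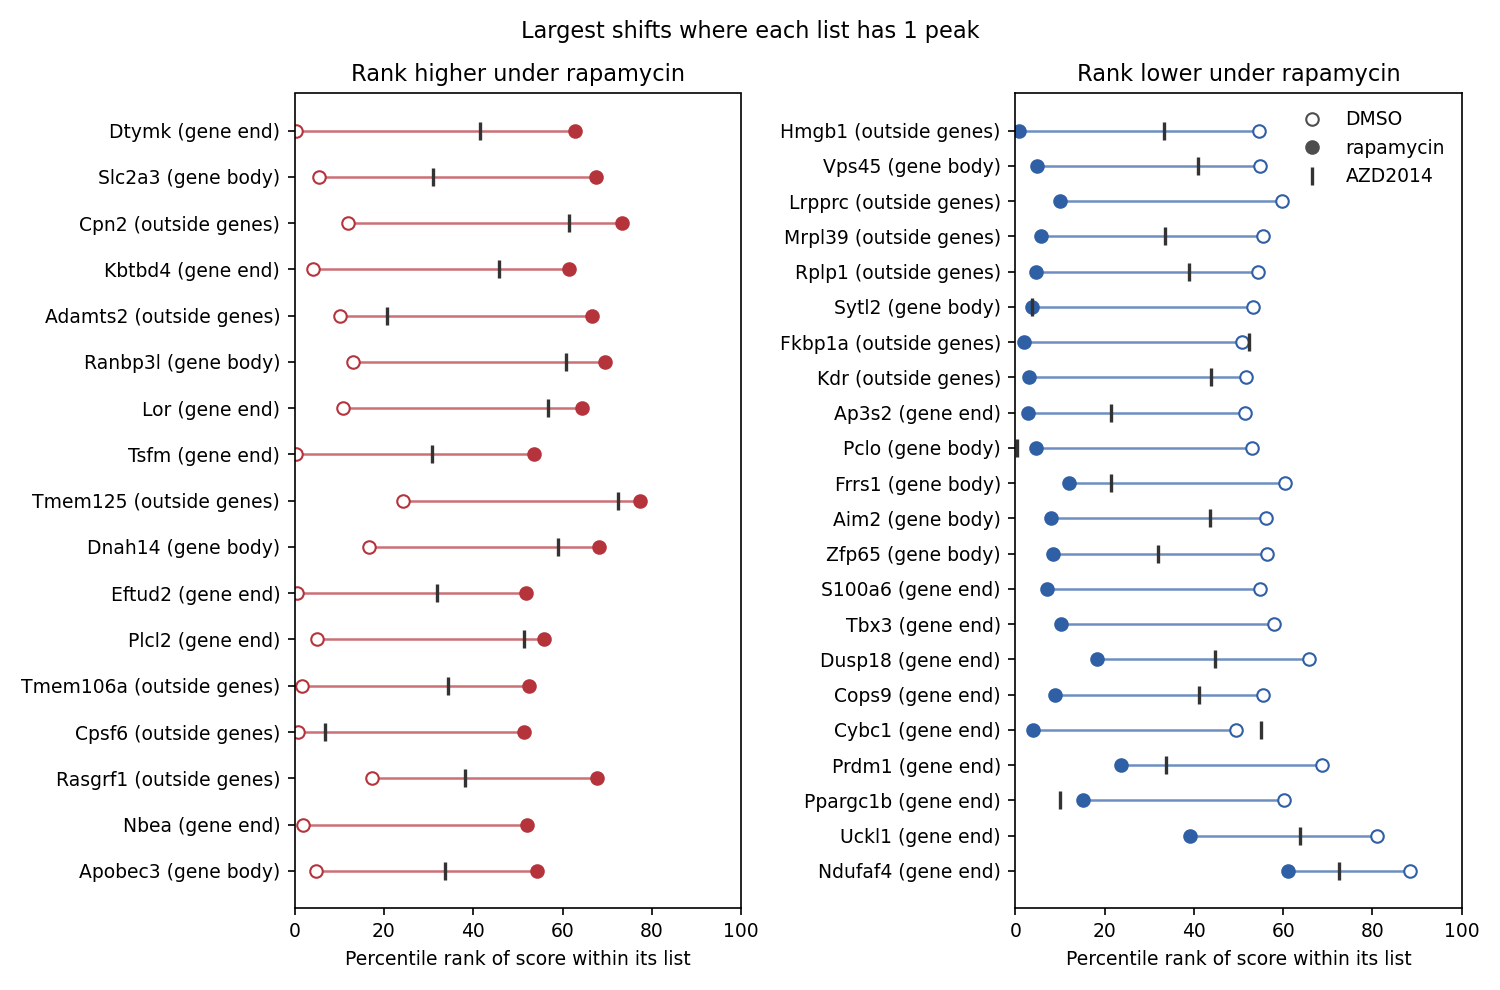
Percentile rank within its own list (x axis) for 17 risen (left) and 22 fallen (right) pairs among those named by rule at which each list had 1 peak; open circles are DMSO, filled circles rapamycin and ticks AZD2014, and a missing tick means no AZD2014 peak. The rises start at 24.2 or lower in the DMSO list, and the falls start between 49.5 and 68.7 except Uckl1 and Ndufaf4, which start higher.

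Inside gene bodies the leading single-peak rise was at Slc2a3 (chr6:122742331-122742978), which encodes the glucose transporter GLUT3. Its percentile was 5.50 under DMSO, 67.5 under rapamycin and 30.9 under AZD2014, at widths of 560 and 644 bp. Ranbp3l, a nuclear export factor gene, went from 13.1 to 69.5, Dnah14, an axonemal dynein gene, from 16.6 to 68.3, and Apobec3, a cytidine deaminase gene that restricts retroviruses, from 4.88 to 54.2. Syne1, a nuclear envelope protein gene, went from 6.75 to 57.1 with 2 DMSO peaks in its span and a merged shift of 39.0. Falls in gene bodies were at Vps45, a vesicle-sorting gene (54.9 to 4.93), Sytl2 (53.2 to 3.66), Pclo (53.1 to 4.55), Frrs1 (60.5 to 12.1), Aim2, a sensor of cytosolic DNA (56.0 to 7.88), and the zinc finger gene Zfp65 (56.3 to 8.45). The AZD2014 percentiles of Sytl2 and Pclo were 3.75 and 0.468, whereas that of Aim2 was 43.6 and that of Vps45 was 40.8. A gene-body peak lies over 1 kb from both outer ends of a gene and can still be at an annotated start inside it. The distance to such a start was 0 bp at Aim2 and at Fbxl17, and 46 bp at Vps45.

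Outside genes the rises lay at 76.3 kb from Cpn2 (11.9 to 73.4), 35.7 kb from Adamts2 (10.1 to 66.7), 2.69 kb from Tmem125 (24.2 to 77.4), 12.7 kb from Tmem106a (1.59 to 52.4), 85.1 kb from Cpsf6 (0.745 to 51.4) and 34.6 kb from Rasgrf1 (17.4 to 67.7). Nearest genes only name the position of such a peak. The falls lay at 39.5 kb from Hmgb1 (54.5 to 0.887), 54.1 kb from Lrpprc (59.8 to 9.94), 19.04 kb from Mrpl39 (55.5 to 5.77), 247 kb from Rplp1 (54.4 to 4.68), 11.7 kb from Fkbp1a (50.8 to 1.90) and 106 kb from Kdr, a vascular endothelial growth factor receptor gene (51.7 to 3.002). The peak near Lrpprc had no partner in the AZD2014 list, and that near Fkbp1a stood at 52.4 there.

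Fkbp1a, the gene of the protein that rapamycin binds, was among the most changed of the genes that had been listed for the pathway. Its promoter peak (chr2:151542192-151542877) scored 199.4 under DMSO and 93.45 under rapamycin, and its percentile was 69.1, 33.6 and, under AZD2014, 53.7. The width was 617 and 675 bp. Within 20 kb of the gene there were 4 pairs, and each of them shifted by more than 20 points: the promoter peak and the upstream peak already described fell, while upstream peaks at chr2:151535894-151537030 and chr2:151524104-151524870 rose. The former of these went from 1.92 to 36.9 and the latter, nearest to Nsfl1c, from 20.4 to 43.9, so that no common direction held across the locus. The median shift of the 4 was -5.97.

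**Figure D4:**
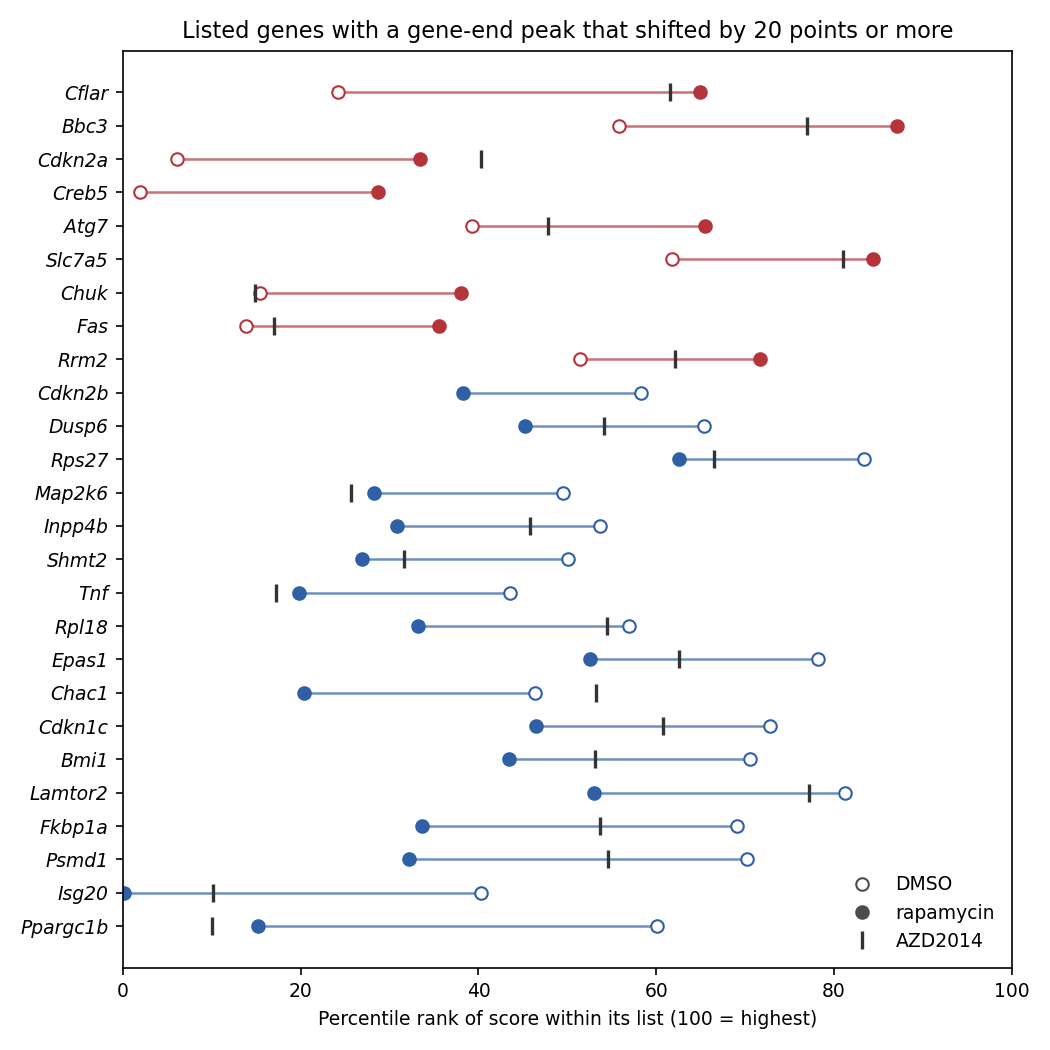
Percentile rank within its own list (x axis) of the gene-end peak of listed genes that rose (red) or fell (blue) by 20 points or more, without 2 that are not reported; open circles are DMSO, filled circles rapamycin and ticks AZD2014. The 9 genes that rose are led by Cflar and the 17 shown that fell by Ppargc1b, Isg20 and Psmd1.

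The other core genes of the mTOR complexes shifted less than Fkbp1a at their gene ends. Mtor stood at 98.4 under DMSO, 97.0 under rapamycin and 93.6 under AZD2014. Rptor, the mTORC1 scaffold, stood at 29.7, 42.7 and 49.6, and Rictor, its counterpart in mTORC2, at 61.7, 75.4 and 60.0. The mTORC1 inhibitor Akt1s1 (PRAS40) stood at 97.4, 95.1 and 92.3, the activator Rheb at 95.2, 97.1 and 95.7. None of these 5 passed 20 points. Among 12 subunit and partner genes with a gene-end pair the median shift was -1.47, with 0 risen and 1 fallen (Fkbp1a), beside 5.02% risen and 3.73% fallen among all 9594 genes with a gene-end pair. The same shares stand beside the counts of risen and fallen genes in the lists below. The mTORC2 subunit gene Prr5 had a gene-end peak under rapamycin alone, at percentile 19.9.

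Upstream of mTORC1, 25 genes of amino acid sensing and the TSC-Rheb branch had a median shift of -0.256. Lamtor2, a subunit of the Ragulator that anchors mTORC1 at the lysosome, was the 1 gene that fell, from 81.2 to 52.9 with 77.2 under AZD2014, and none rose. Its DMSO peak of 1506 bp also covered the Ubqln4 promoter window, and the rapamycin list had 2 peaks over that span. Tsc2, the GTPase activator that turns Rheb off, had a gene-end peak at percentile 49.5 under rapamycin and 46.3 under AZD2014 and none under DMSO, and the GATOR2 subunit gene Sec13 one at 25.4 and 36.4. Genes with a gene-end peak under rapamycin alone of the pair made up 2.54% of all 21887 protein-coding genes, and those under DMSO alone 2.38%. These shares also stand beside the genes with a peak on one side that are named below. In the PI3K-AKT and insulin feedback list Inpp4b, a phosphoinositide phosphatase gene, fell from 53.7 to 30.8, while gene-end peaks of Irs1 (23.4) and Inpp5d (3.18) were in the rapamycin list alone of the pair. Foxo1 stood at 62.6 and 44.1, and Pik3r1 at 95.6 and 79.3, both short of 20 points.

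Downstream of mTORC1, none of 17 S6 kinase, 4E-BP and initiation factor genes rose or fell, and their median shift was 1.66. Eif4ebp1, which encodes the translation repressor 4E-BP1, stood at 74.3, 86.4 and, under AZD2014, 84.8, and Rps6kb1, the gene of S6 kinase 1, at 82.8, 85.6 and 85.3. A peak just outside Eif4ebp1 (chr8:27252583-27253130) rose from 11.6 to 40.6 and stood at 31.7 under AZD2014. Eif4a1, the RNA helicase of the cap-binding complex, stood at 82.6 and 92.8 with 840 and 2030 bp, where the DMSO list had 2 peaks. Of 37 genes of cytosolic ribosomal proteins, 4 fell and none rose, beside the 3.73% fallen and 5.02% risen among all genes. Among the 4 were Rpl18 (57.0 to 33.2) and Rps27 (83.3 to 62.6). The median of the 37 was nevertheless 0.809, and the highest shift was 9.02. Rpl18 shares its peak with Sphk2, and under AZD2014 Rpl18 stood at 54.5 and Rps27 at 66.5.

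Among 31 MAPK, MNK and CREB genes, with a median of 2.43, Creb5 rose and Map2k6 and Dusp6 fell. The shares among all genes with a gene-end pair were 5.02% risen and 3.73% fallen. Creb5, a CRE-binding factor gene, went from 1.96 to 28.7 and from 323 to 681 bp, and its promoter window holds a CRE match. Map2k6, a kinase that activates p38, went from 49.5 to 28.2, and Dusp6, an ERK phosphatase gene, from 65.4 to 45.2. The MNK kinase genes Mknk1 (79.2 and 81.9) and Mknk2 (96.0 and 98.6) held their ranks at the promoter. Peaks within 20 kb of them did rise: one in the body of Mknk1 (chr4:115848987-115849691) from 30.3 to 51.2, and one at the end of the neighbouring gene Btbd2 (chr10:80656147-80657000) from 50.6 to 71.9. Map3k8, a kinase upstream of MEK, had a gene-end peak at 47.0 under DMSO and none under either inhibitor.

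Of 20 immediate early genes none rose or fell, beside 5.02% and 3.73% of all genes with a gene-end pair. Their median was 3.33 and their range -17.2 (Zfp36l1) to 16.65 (Junb). Myc stood at 52.4 under DMSO, 48.7 under rapamycin and 55.1 under AZD2014, with its peak 1165 and 1576 bp wide. The 25 genes of the Myc and ribosome biogenesis list had a median of -0.535 with no gene risen or fallen, and Mycn widened from 611 to 1268 bp at 61.3 and 54.7.

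The HSC genes gave no single direction. Among 19 HSC transcription factor genes with a gene-end pair the median was -1.01, the range being -12.05 to 17.35. None rose or fell, beside 5.02% and 3.73% of all genes. Runx1 stood at 56.7 and 46.8 at its gene end, and over its 6 pairs within 20 kb the shifts ran from -12.14 to 12.01. Hlf stood at 64.6 and 54.2, and Mecom at 66.9 and 59.6. Meis1 had 2 gene-end pairs that moved in opposite directions: one (chr11:19020263-19020898) stood at 26.3 and 43.7, and the other (chr11:19018640-19019367) fell from 41.5 to 2.38. A peak beyond its other end (chr11:18877317-18878136) fell from 55.3 to 34.3. Gene-end peaks at Hoxa9 (24.6), Lmo2 (35.0) and Prdm16 (10.3) were in the DMSO list without a rapamycin counterpart, and that at Spi1 was in the rapamycin list (0.928) and the AZD2014 list (19.4) without a DMSO counterpart. Of 11 HSC surface and niche genes none rose or fell, with a median of -3.18. Kit, the stem cell factor receptor gene, stood at 55.9 and 56.7 while its peak widened from 569 to 1147 bp.

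Of the 18 genes of the quiescence and CDK inhibitor list, 1 rose and 2 fell, beside 5.02% and 3.73% of all genes with a gene-end pair. All 3 are CDK inhibitor genes, and the list median was -1.39. Cdkn1c, which encodes p57 and maintains HSC quiescence, fell from 72.8 to 46.5, with 60.7 under AZD2014. At the Ink4 locus the neighbouring genes moved in opposite directions, toward each other: Cdkn2a rose from 6.13 to 33.4, with 40.2 under AZD2014, and Cdkn2b fell from 58.3 to 38.3, with no AZD2014 peak. In the cell cycle list of 29 genes Rrm2, a ribonucleotide reductase subunit gene, rose from 51.4 to 71.6 and none fell. Bmi1, a Polycomb gene needed for HSC self-renewal, was the 1 of 21 chromatin regulators that fell, from 70.6 to 43.4, even as its peak widened from 842 to 1419 bp. Gene-end peaks of Ezh1 (51.1) and Arid1a (30.3) were in the rapamycin list alone of the pair.

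The apoptosis list had a median shift of 4.53 over 15 genes, with 3 risen and none fallen, beside 5.02% and 3.73% among all genes. Its members ranged from -11.56 to 40.7 points. Cflar, which encodes the caspase-8 inhibitor c-FLIP (chr1:58711462-58713525), rose from 24.2 to 64.9 with 61.5 under AZD2014, and its peak widened from 678 to 2064 bp. Bbc3, the gene of the BH3-only protein PUMA, rose from 55.8 to 87.1 with 77.0 under AZD2014. The DMSO list had 2 peaks over that span, and the merged shift was 31.7. The death receptor gene Fas rose from 13.8 to 35.6, with 17.0 under AZD2014. Gene-end peaks of Bak1 (18.1) and Casp8 (25.9) were found in the rapamycin list and in neither of the others. The members that rose act in both directions on cell death.

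The genes of the autophagy and lysosome list act in a process that mTORC1 represses through TFEB and ULK1. The 29 genes had a median shift of -2.74, and 1 rose: Atg7, of the LC3 conjugation machinery, from 39.3 to 65.5. In width, 9 of the 29 were wider, beside 13.6% of all genes with a gene-end pair. Tfeb widened from 622 to 1421 bp, Lamp2 from 241 to 561 bp, Ctsl from 624 to 1203 bp, Ulk2 from 503 to 917 bp, Map1lc3b from 626 to 1131 bp and Atp6v1a from 1380 to 2469 bp. The other 3 were Mcoln1, Ctsd and Atg16l1, with ratios of 1.75, 1.61 and 1.59. Of these 9 genes Tfeb, Lamp2 and Ulk2 had positive shifts, of 9.85, 12.9 and 18.6 points, and the remaining 6 had negative ones.

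In the integrated stress response list of 21 genes, the ATF4 target Slc7a5, a leucine transporter gene, rose from 61.8 to 84.4 with 81.0 under AZD2014. Chac1 fell from 46.4 to 20.4 and Shmt2, of mitochondrial one-carbon metabolism, from 50.02 to 26.9. Gene-end peaks of Trib3 (40.6) and Atf6 (21.4) lacked a rapamycin counterpart. The list median was -2.58, and 1 gene rose and 2 fell, beside 5.02% and 3.73% of all genes with a gene-end pair. Ddit4, which encodes the mTORC1 inhibitor REDD1, stood at 90.5 and 92.7 while its peak widened from 580 to 1397 bp.

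Metabolic lists held single changes. Epas1, the gene of HIF-2α, fell from 78.2 to 52.5 among 19 glycolysis and hypoxia genes, and Ppargc1b was the 1 that fell among 21 mitochondrial genes. None of 21 sterol and fatty acid synthesis genes rose or fell, with a median of 0.494. The immune lists likewise had few. Of 15 interferon response genes Isg20, an antiviral exonuclease gene, fell from 40.2 to 0.157, with 10.1 under AZD2014. Gene-end peaks of Irf7 (14.3), Ifit2 (0.887), Ifitm1 (33.7) and Oas1a (43.2) were present under DMSO and not in the shortened rapamycin list. Those of Eif2ak2 (12.4) and Psmb8 (47.2) were present under rapamycin and not under DMSO. Over all protein-coding genes, 2.38% had such a peak under DMSO alone of the pair and 2.54% under rapamycin alone. Among 17 NF-kB and inflammation genes Chuk, an IkB kinase gene, rose by 22.6 points from 15.4, and Tnf fell from 43.6 to 19.8. The proteasome gene Psmd1 fell from 70.2 to 32.2 in the housekeeping list, so that a shift of this size was also met among genes chosen as controls.

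Over all 23 lists, 466 of 615 listed genes had a gene-end pair. Of these 9 rose, or 1.93%, and 19 fell, or 4.08%, against the 5.02% and 3.73% among all genes given above. The listed genes had a median DMSO percentile of 74.4, and all genes with a gene-end pair 72.7. List medians ran from -3.18 to 4.53 points, 10 above and 13 below 0. In 16 lists no gene rose and in 10 none fell.

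**Figure D5:**
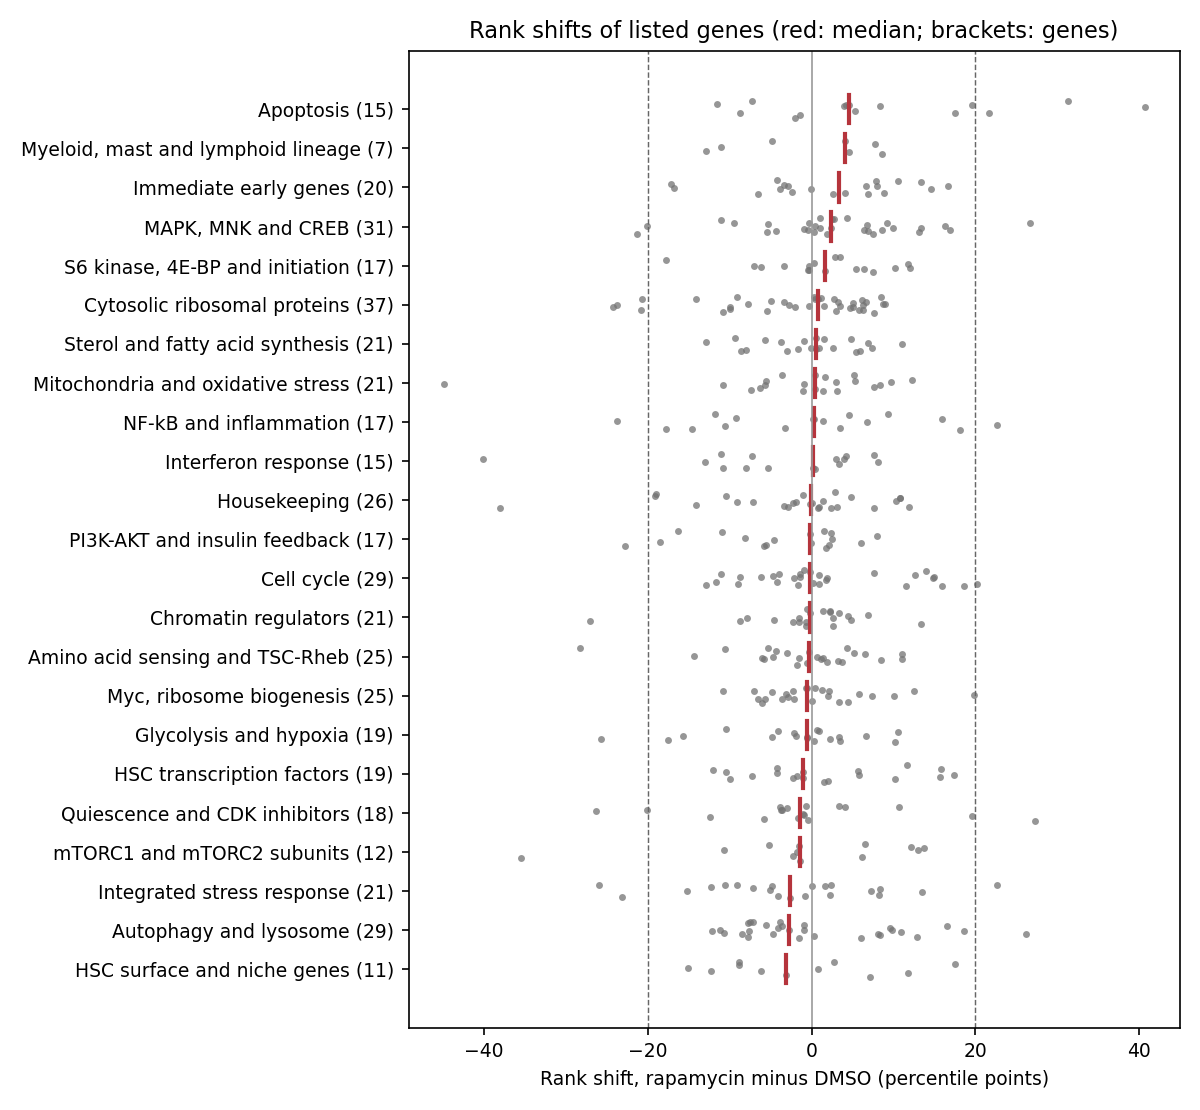
Rank shift, rapamycin minus DMSO, in percentile points (x axis) for each listed gene with a gene-end pair (grey points), by list (rows, number of genes in brackets), with the list median as a red bar and dashed lines at 20 points either way. The medians lie between -3.18 and 4.53, and most points lie inside the dashed lines.

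Peak width changed more uniformly than rank. The median ratio of rapamycin to DMSO width was 1.17 over all pairs, and 77.1% of pairs were wider under rapamycin by any amount. Greater width was not particular to rapamycin. At the same list length the median ratio was 1.24 for AZD2014 against the same DMSO library. For rapamycin against AZD2014 it was 0.945. Past 1.5-fold, 2281 pairs were wider (16.4%) and 155 narrower (1.12%). Among genes with a gene-end pair 13.6% were wider and 0.917% narrower. The ratio was 1.16 at gene ends, 1.196 in gene bodies and 1.19 outside genes, and it exceeded 1 at the median of all 23 gene lists. Widths also differ between the lists as a whole, at medians of 610 and 735 bp, so a ratio near 1.17 is the ordinary state of a pair here.

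Width and rank were linked. Score and width had a Spearman correlation of 0.805 across the DMSO peaks and 0.780 across the rapamycin peaks. Risen pairs had a median ratio of 1.49, fallen pairs 1.03 and the rest 1.17. Among risen pairs 49.3% were wider, and among fallen pairs 7.28%. The gene ends with the largest ratios were Mbnl3, a splicing regulator gene (452 to 1630 bp), Icosl, a T cell costimulatory ligand gene (301 to 1038 bp), Itsn2, an endocytic scaffold gene (345 to 1172 bp), Vgll3 (327 to 1035 bp), Arl5c (530 to 1676 bp, with 2 DMSO peaks in the span) and Acss1, a mitochondrial acetyl-CoA synthetase gene (548 to 1732 bp). Mbnl3 ranked 31.8 and 48.7, Vgll3 4.91 and 49.4, and Acss1 17.3 and 63.0. The narrowest after S100a6 were Bcl7a (1114 to 440 bp), Wls, which carries Wnt ligands to the surface (1296 to 628 bp), Prdm2, and Bcat2, a branched-chain aminotransferase gene (1170 to 573 bp). Bcat2 kept its rank at 63.9 and 64.9. Ep300, an acetyltransferase gene, had a ratio of 0.493 at ranks of 88.3 and 83.7, but the rapamycin list had 2 peaks over its span.

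The sequence at the shifted promoters was described for the 7221 promoter windows, of 21238 in the table, that a pair overlapped. The table covers 17469 genes. Median GC content was 62.0% in 368 risen, 59.0% in 289 fallen and 62.7% in 6564 other windows, and the observed over expected ratio of CpG was 0.780, 0.733 and 0.818. All windows of the table had 56.3% and 0.567. Motif matches were searched on both strands. A match describes letters and says nothing of binding, and the same share over all 21238 windows is given beside each.

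The NF-Y motif, GATTGG, was in 13.9% of risen, 17.0% of fallen and 25.03% of other windows, against 18.2% of all promoters. SP/KLF matches, GGGCGG, were in 67.9%, 60.6% and 74.0%, against 46.2% of all promoters. Promoters with either motif had higher median ranks, and high ranks seldom shift, so the shares were also taken within rank. Above a mean percentile of 50, SP/KLF matches were in 69.6% of risen, 63.3% of fallen and 76.1% of other windows. Below it they were in 66.95%, 59.3% and 63.2%, so that risen windows stood above the others there and not overall. Above a mean percentile of 50, NF-Y matches were in 16.3% of risen, 18.9% of fallen and 26.7% of other windows. Below it the shares were 12.4%, 16.1% and 16.6%. The GATA motif, AGATAA, was in 4.08% of risen, 9.34% of fallen and 5.03% of other windows, against 9.65% of all promoters. Below a mean percentile of 50 the GATA shares were 4.29%, 11.6% and 7.05%, on 10, 23 and 78 windows. Above it they were 3.70%, 4.44% and 4.62%, on 5, 4 and 252 windows, so that the higher share in fallen windows was met only below 50.

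The ETS motif, CCGGAAGT, seen above in Kbtbd4, Fkbp1a and Cops9, was in 7.34% of risen, 12.1% of fallen and 9.99% of other windows, against 5.15% of all promoters. The E-box CACGTG, which Myc and TFEB recognise, was in 13.6%, 12.1% and 10.9%, against 7.83%. For the NRF1 motif, GCATGCGC, the shares were 4.35%, 6.57% and 6.82%, against 3.52%. Matches to the cyclic AMP response element (CRE), TGACGTCA, were in 2.99%, 1.73% and 4.14%, against 2.24%. The AP-1 motif, TGANTCA, was in 5.16%, 3.81% and 3.69%, against 6.99%. Below a mean percentile of 50 the AP-1 shares were 6.87%, 4.52% and 4.07%, and above it 2.22%, 2.22% and 3.61%. NRF1, CRE, RUNX and IRF matches are given over all ranks only. RUNX matches, TGTGGT, were in 11.1%, 12.8% and 11.2%, against 14.97%, and IRF matches, AANNGAAA, in 16.8%, 17.99% and 15.2%, against 21.7%.

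Unpaired peaks mostly had low ranks. The 3170 DMSO peaks were 18.4% of the list (95% Wilson interval 17.9 to 19.03, for counting error only), with a median percentile of 15.4. The 3284 rapamycin peaks were 19.1% (18.5 to 19.7), with a median of 15.2. Above the 50th percentile there were 47 unpaired DMSO and 51 unpaired rapamycin peaks. Of the DMSO ones, 277 overlapped a rapamycin peak that had been dropped in shortening. Gene ends held 581 unpaired DMSO and 610 unpaired rapamycin peaks, or 6.44% and 6.78% of the gene-end peaks of each list. Gene bodies held 1331 and 1339, or 30.1% and 30.5% of the peaks there. The space outside genes held 1258 and 1335, or 33.6% and 35.1%. A partner in the AZD2014 list was present for 35.2% of the DMSO and 42.7% of the rapamycin peaks. Of all 17189 peaks of each list, 2889 DMSO and 2704 rapamycin peaks had no such partner.

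The highest-scoring unpaired rapamycin peaks at gene ends were at Ctso, a cathepsin gene (chr3:81932298-81933148, percentile 60.8), Eya1, a phosphatase and transcription coactivator gene (60.0), Egln1, a HIF prolyl hydroxylase gene (58.7), Zfp637 (58.3) and Auts2, of a variant Polycomb complex (57.0). Their AZD2014 percentiles were 32.9, 36.8, 59.0, 64.0 and 11.3. In gene bodies they lay in Mcph1 (61.8), Foxred2 (60.6), Nrip3 (58.6), Slc15a1 (58.4) and Dst (57.9), and outside genes nearest to Asprv1 (61.0), Tspan2 (60.8), Kif2a (57.6), Ero1b (57.6) and Osbp (54.6). All 15 had an AZD2014 partner. The gene-body peaks in Foxred2 and Dst overlapped an annotated start of a protein-coding gene.

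On the DMSO side 3 unpaired peaks ranked above 75, and none of these had an AZD2014 peak. The highest lay near the start of chromosome 9 as assembled (chr9:3023123-3026111), 309 kb from the nearest gene Alkbh8, at percentile 92.2 and 2989 bp wide. The others lay at and 17.6 kb beyond an end of Mid1, a ubiquitin ligase gene on chromosome X, at 79.2 (chrX:169990967-169991820) and 86.7 (chrX:170008360-170010474). These 2 were 854 and 2115 bp wide, against a median of 394 bp for unpaired DMSO peaks. Whether reads map uniquely at these 3 positions was not tested. Further unpaired DMSO peaks at gene ends were at Dusp22, a phosphatase gene (63.7), Zfyve9, a SMAD anchor gene (62.2), Epb41l5 (59.9) and Oxld1 (54.8). In gene bodies they lay in Gcnt2 (66.3), Prkce, a protein kinase C gene (60.2), Hhat (59.9), Ptpn13 (59.0) and Camkk2, an upstream kinase of AMPK (55.1). Outside genes they were nearest to Pdia4 (72.5, with no AZD2014 peak), Thsd7b (59.6) and Edn1 (59.2).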

How the data were processed

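ATAC-seq peak lists of 3 libraries, 1 per condition, were used. The authors deposited, per list line, a chromosome, start, end, peak name and score, and this deposited score ranked peaks within a list only. The build was mm10 and CASAVA was used, per the submitters' processing notes. Peak names carry the word MACS, per the files. Aligner, duplicate handling, transposase shift, and caller version and settings, all of which affect the number and width of weak peaks, are not given in the sources. Starts were written from 1. Ties in score were broken by width, then position. Genes were the 21887 protein-coding RefSeq genes on GRCm38 patch 6, and 1 pair stood for a gene, the gene-end pair with the highest mean rank.

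Named pairs were the 12 gene-end rises and 12 falls, the 5 each by shift over the local robust SD, the 6 each in gene bodies and outside genes, the 6 widest and 6 narrowest ratios, the 5 highest-scoring unpaired peaks per side and place, listed genes past a threshold and 17 fixed genes, without names holding Gm or Rik. Other peaks near fixed genes, one-sided listed genes and listed genes short of the thresholds were chosen after their values were seen. Some genes that these rules name are not reported here. Members and lists were chosen with earlier results of these data known. The pairing code was tested on a copy of the DMSO list altered in known ways, in which the unaltered peaks kept their positions. Alternatives were reciprocal overlap, full lists, ranks over paired peaks, merged regions, upper ranks, fixed widths, chromosomes, thresholds and gene windows. Python 3.11.15, numpy 2.4.6, pandas 2.3.3, scipy 1.17.1 and matplotlib 3.10.9 were used.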

Additional observations from a re-analysis of the deposited data

How the results depend on the processing

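No paired analysis was possible because each condition has 1 library, and for the same reason no replicate could be left out. Falls outnumbered rises when a reciprocal overlap of 50% was required, at 869 and 778, against 906 and 994 in the main setting. The median shift at gene ends was then 0.00436, against 0.154. With a reciprocal overlap of 50% the median width ratio was 1.16, with peaks set to 200 bp it was 1.16 and 100 pairs were narrower, and in the upper 50% of pairs by mean rank it was 1.14, with 115 risen, 87 fallen, 721 wider and 40 narrower, fewer pairs being counted. Without shortening the rapamycin list the median shift was 1.15 at gene ends, 1.24 in gene bodies (against -0.640) and 1.55 outside genes, since list length enters the percentile. A threshold of 10 points gave 2664 rises and 2634 falls, one of 30 points 366 and 283, and a 2-fold width threshold 472 wider and 16 narrower pairs. With gene starts in place of both gene ends the median in gene bodies was -0.0553. Merging overlapping peaks turned Tiparp to -1.17 and Fbxl17 to -2.30, and moved 9 other named shifts by more than the local spread without turning them, Gtpbp2 from -86.9 to -11.99 and Akirin2 from -46.8 to -2.07 among them. Of the 53 named shifts, 45 stayed past 20 points with merged regions, 52 with full lists and 53 with ranks over paired peaks only. A reciprocal overlap of 50% kept 37 of these pairs, peaks of 200 bp kept 35 and the upper 50% kept 6. Of the 23 list medians, 8 changed sign with full lists, 2 with gene ends of 2500 bp, 1 with gene ends of 500 bp and 1 with ranks over paired peaks only, so the sign of a list median near 0 carries nothing. The median of the immediate early genes went from 3.33 to -0.838 at 2500 bp and that of the HSC transcription factors from -1.01 to 2.07 with full lists. Pairs whose span holds 1 peak of each list, a setting chosen after seeing the data, gave 928 rises, 890 falls, 2151 wider and 138 narrower. With 1 library per condition and unknown depth, the drug and the library cannot be told apart.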
